A study of Mus musculus with 5 samples.

Results

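The collagen chain genes are the 44 of the 18044 genes in the deposited table whose symbols consist of Col, a type number, the letter a and a chain number. They were taken by that spelling alone and sorted into 11 fibrillar chains, 9 basement membrane chains and 24 other chains. RNA was sequenced from C57BL/6 mouse embryos at stage E18.5, from cells sorted with an antibody against HCN3, a hyperpolarization-activated channel. The cells came from the junction of the renal pelvis and the kidney, where HCN3-expressing cells are held to pace the waves of contraction that move urine. There were 2 libraries of sorted HCN3-positive cells and 3 of HCN3-negative cells. All animals were wild type and untreated, the junctions of all embryos were pooled before sorting, and nothing in the labels says that the libraries came from separate pools. P-values therefore measure the spread between these libraries, which may be technical.

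Collagens are secreted proteins in which chains wind around each other into a long helix. Fibrillar collagens (types I, II, III, V, XI, XXIV and XXVII) assemble into the fibres that give interstitial tissue its tensile strength, whereas type IV chains join into the flat network under every epithelium and endothelium. Type VI forms beaded filaments near cells, fibril-associated collagens decorate the fibres, and transmembrane collagens stay anchored in the cell surface. In the kidney, stromal cells and smooth muscle are known as sources of the interstitial types, and podocytes as the source of the Col4a3, Col4a4 and Col4a5 chains of the glomerular basement membrane.

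The libraries held 24588864 to 39034478 reads in genes, and 100% of the deposited values above 0 were whole numbers of reads divided by a library factor. The labels and the deposited table divide the libraries differently. The table's own fold column equals, in 18047 of 18047 rows within 0.01, a ratio of means between HCN3-positive 2, HCN3-negative 1 and HCN3-negative 3 (called the second set here) and HCN3-positive 1 with HCN3-negative 2 (the first set). The labels and the table's headers do not say what these sets stand for. Hcn3, the channel of the sort, had normalized read counts of 0 in the library labelled HCN3-positive 1 and 44.5 in HCN3-positive 2, against 103, 32.2 and 41.9 in HCN3-negative 1, 2 and 3, so its RNA went against the label of HCN3-positive 1. A count of 0 there allows up to 4.23 normalized counts. All 15 macrophage markers passed the test as lower in the second set: the marker Csf1r had 92160 and 139878 normalized counts in HCN3-positive 1 and HCN3-negative 2 and 422 to 546 in the other 3 libraries. The summed macrophage markers took 1.63% and 1.87% of the gene total in the first set and 0.00453% to 0.00841% in the second. Whether the titles are right cannot be told from the sources used here, and the by-label values hold only if they are. The comparison by label comes first, and the members are then described by set.

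Promoters are printed for 6 chains, the pair of most abundant fibrillar genes with an entry in the promoter table, and both head-to-head type IV pairs with entries, to show the main fibrillar genes and the type IV genes that start beside each other on opposite strands. Each runs 5′ to 3′ along its gene, from 250 bases before to 50 after the start in RefSeq on GRCm38.p6 (mm10), and 35 of the 44 members had an entry. The windows are chr6:4505368-4505667 on the plus strand (Col1a2), chr1:45311288-45311587 plus (Col3a1), chr8:11312777-11313076 minus (Col4a1), chr8:11312555-11312854 plus (Col4a2), chrX:141475169-141475468 plus (Col4a5) and chrX:141474027-141474326 minus (Col4a6). Capitals mark the motifs searched for on both strands, so a match on the opposite strand shows as the reverse complement: the box named CCAAT, the GC box, spelled GGGCGG, and the TATA box, spelled TATAAA. Where the letters of motifs overlap, each is counted.
Col1a2: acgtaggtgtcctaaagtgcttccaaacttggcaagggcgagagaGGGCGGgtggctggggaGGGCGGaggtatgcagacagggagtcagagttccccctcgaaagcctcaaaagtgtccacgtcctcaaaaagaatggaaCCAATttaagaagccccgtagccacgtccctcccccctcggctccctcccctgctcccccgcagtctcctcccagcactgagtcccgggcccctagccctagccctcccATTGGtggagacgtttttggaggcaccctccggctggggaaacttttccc
Col3a1: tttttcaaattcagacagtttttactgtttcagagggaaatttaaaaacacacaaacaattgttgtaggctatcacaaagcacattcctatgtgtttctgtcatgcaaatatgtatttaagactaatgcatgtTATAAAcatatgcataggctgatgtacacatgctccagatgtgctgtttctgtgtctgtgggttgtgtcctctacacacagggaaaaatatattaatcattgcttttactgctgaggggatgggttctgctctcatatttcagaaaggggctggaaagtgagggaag
Col4a1: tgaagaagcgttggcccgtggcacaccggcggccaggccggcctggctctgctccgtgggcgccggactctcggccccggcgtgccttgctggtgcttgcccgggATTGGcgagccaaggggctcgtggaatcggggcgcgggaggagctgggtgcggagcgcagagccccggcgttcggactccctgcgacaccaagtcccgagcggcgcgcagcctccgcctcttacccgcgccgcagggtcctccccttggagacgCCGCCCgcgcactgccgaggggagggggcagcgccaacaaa
Col4a2: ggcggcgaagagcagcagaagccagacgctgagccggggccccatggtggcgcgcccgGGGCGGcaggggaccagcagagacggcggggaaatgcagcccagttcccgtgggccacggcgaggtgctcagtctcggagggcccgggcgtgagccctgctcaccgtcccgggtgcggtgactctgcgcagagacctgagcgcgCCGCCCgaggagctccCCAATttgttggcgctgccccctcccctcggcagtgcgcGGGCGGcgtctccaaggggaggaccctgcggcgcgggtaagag
Col4a5: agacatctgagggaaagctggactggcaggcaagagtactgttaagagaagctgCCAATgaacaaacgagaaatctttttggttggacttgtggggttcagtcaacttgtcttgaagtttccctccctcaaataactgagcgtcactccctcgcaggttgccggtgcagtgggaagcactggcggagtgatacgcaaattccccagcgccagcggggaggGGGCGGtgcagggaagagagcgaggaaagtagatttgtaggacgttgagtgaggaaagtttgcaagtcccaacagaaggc
Col4a6: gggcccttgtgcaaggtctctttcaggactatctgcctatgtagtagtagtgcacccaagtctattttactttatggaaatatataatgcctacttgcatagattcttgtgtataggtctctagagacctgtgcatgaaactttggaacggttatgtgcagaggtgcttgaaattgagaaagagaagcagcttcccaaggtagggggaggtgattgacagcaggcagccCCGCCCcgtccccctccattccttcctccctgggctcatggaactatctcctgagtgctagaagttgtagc

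The Col1a2 window held 2 CCAAT matches and 2 GC boxes, and the Col3a1 window a TATA box and neither of the others. Both windows of the Col4a1 and Col4a2 pair held CCAAT and GC boxes. The annotated starts of these genes overlap by 22 bases on opposite strands, and their windows share 78 bases. Col4a5 and Col4a6 start 1308 bases apart on chromosome X, and Col4a3 and Col4a4 71 bases apart on chromosome 1. Over all 35 matched members, CCAAT stood in 34.3% of the windows, the GC box in 62.9% and the TATA box in 14.3%, beside 37.4%, 35.7% and 13.6% of all 32851 promoters of the same length. A match is a stretch of letters and was not tested as a binding site.

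By label, no difference in a collagen gene between HCN3-positive and HCN3-negative libraries passed the test. The spread within each label was wide, and a p that misses the threshold does not show that levels were alike. The limma test on log2(normalized count + 1) called 0 of 42 tested members, and 0 were under an unadjusted p of 0.05. Over all 16579 genes tested it called 0% higher and 0% lower in HCN3-positive libraries, with 157 genes under an unadjusted p of 0.05. On the recovered reads edgeR called 0 genes, with 165 under an unadjusted p of 0.05, and DESeq2 called 10, none of them a collagen. The members' median log2 fold change, HCN3-positive over HCN3-negative, was -0.55, with 9 above 0 and 33 below, beside -0.03 for all genes. That sign rested on 1 library: the median was 0.86 without HCN3-positive 1 and -2.14 without HCN3-positive 2.

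Col3a1, the type III chain of stretchable tissues, had 5149 normalized counts in HCN3-positive 1 and 54659 in HCN3-positive 2, and the HCN3-negative libraries had 101462, 5733 and 42595. The groups overlapped, with the lowest value in an HCN3-positive library and the highest in an HCN3-negative one, and its log2 fold change was -0.80 (SE 1.55). Of the 42 members, Col20a1 alone had groups that did not overlap by label, and it was chosen for mention after its values were seen. This fibril-associated chain had 31.0 and 44.5 normalized counts in HCN3-positive libraries and 124, 65.5 and 114 in HCN3-negative ones (log2 fold change -1.37, SE 0.76, adjusted p = 1.000). Of all genes tested, 5.44% lay wholly below and 5.34% wholly above in HCN3-positive libraries, so 1 of 42 is under the background.

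The label medians of the classes lay between 0 and -1 on the log2 scale: -0.69 for fibrillar, -0.30 for basement membrane and -0.72 for other chains. By label Col1a2 had a log2 fold change of -0.69 (SE 1.68), Col4a1 of -0.56 (SE 0.98) and Col6a1 of -1.14 (SE 1.87), each smaller than its SE. In none of the 8 lists of collagen-related genes described at the end did a gene pass by label (list medians -1.41 to -0.05).

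**Figure D1:**
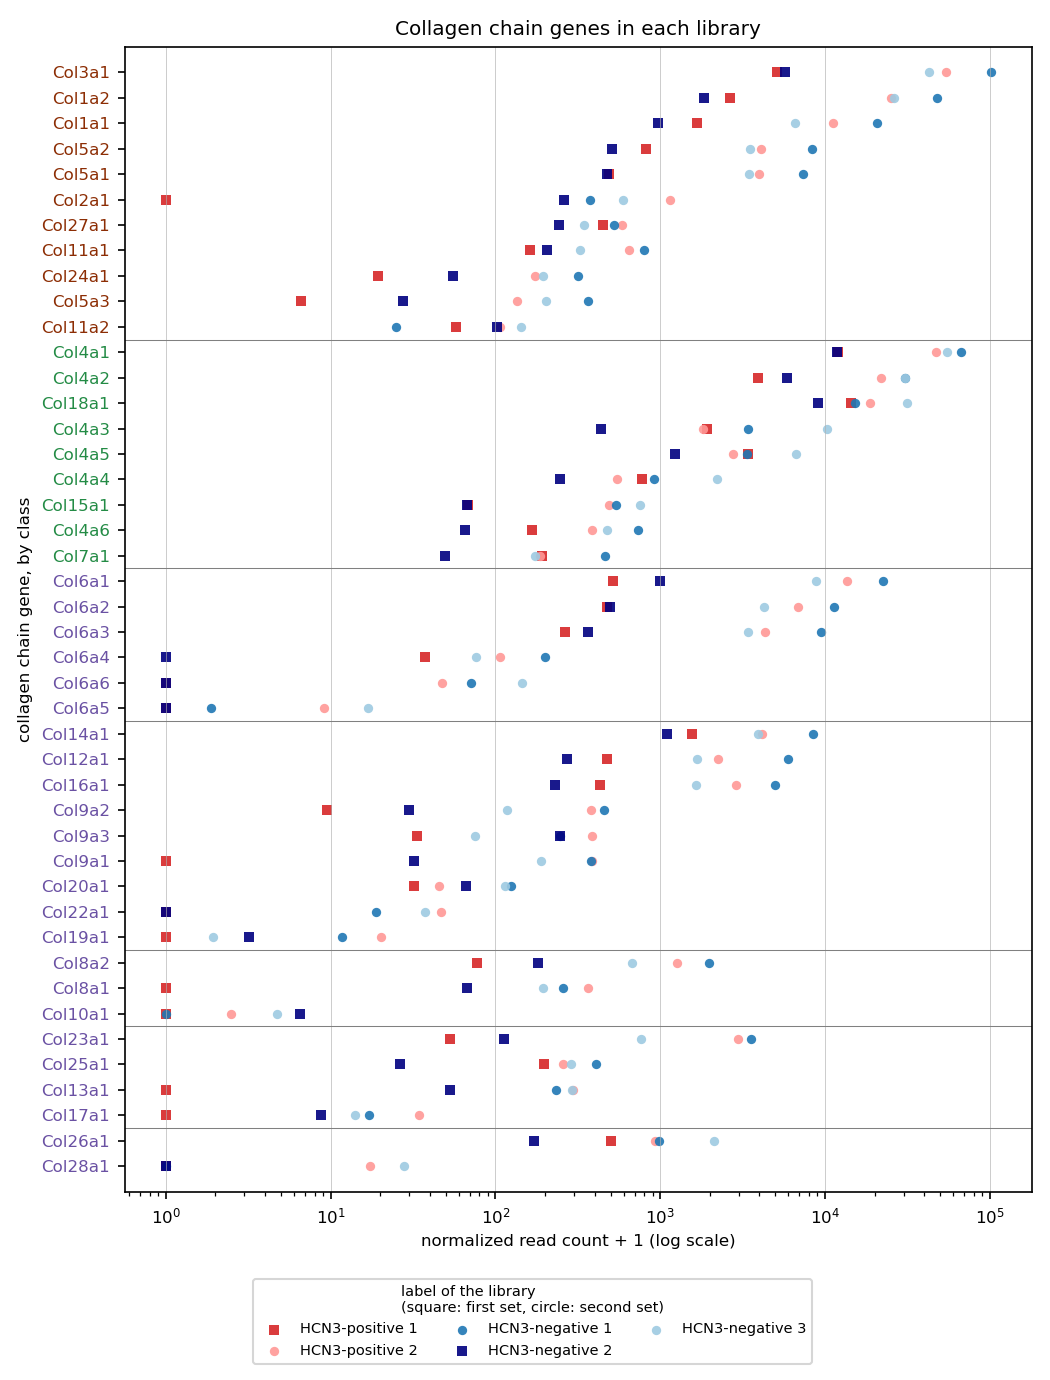
Normalized read count plus 1 of each of the 44 collagen chain genes (log axis) in each library; squares are the first set (HCN3-positive 1, HCN3-negative 2), circles the second set, colours the labels, and rows are grouped by class. For most genes both squares lie left of all circles, for example Col3a1 at 5149 and 5733 against 42595 to 101462.

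Between the sets of the deposited table, collagens of every class were higher in the second set. Of 42 tested members 24 passed as higher and 0 as lower, beside 9.88% of all genes higher and 10.6% lower. The fitted log2 fold change, second over first set, was above 0 for 41 members, with a median of 2.97 beside 0.07 for all genes. In 32 members every second-set library lay above every first-set library and in 0 every one lay below, beside 26.1% and 23.5% of all genes. By the authors' deposited table, 22 of the 44 members had an adjusted p under 0.05, all higher in the second set, beside 6.09% of all genes higher and 8.10% lower, and 20 of these also passed limma. Col10a1 and Col6a5 were under the mean of 5 normalized counts and were not tested. Another 5 members (Col17a1, Col19a1, Col22a1, Col28a1 and Col6a6) passed that filter only through the second set, so the counts above are over the members that passed it, not all members. Where HCN3-positive 1 or HCN3-negative 2 is left out below, the first set is a single library, assumed to vary like the second set, which alone gives the spread.

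All collagens together took 0.153% of the gene reads in HCN3-positive 1 (95% Wilson interval 0.1517% to 0.1547%) and 0.122% in HCN3-negative 2 (0.1210% to 0.1234%). They took 0.820% in HCN3-positive 2 (0.8172% to 0.8229%), 1.31% in HCN3-negative 1 (1.307% to 1.314%) and 0.806% in HCN3-negative 3 (0.8034% to 0.8095%). Intervals and floors cover counting error only. The summed normalized count was 5.99 times higher in the second set for all members, 11.4 times for fibrillar, 3.59 times for basement membrane and 10.4 times for other chains. In bulk samples fewer cells of a type and less RNA per cell cannot be told apart. Markers of other cell types moved with this division: 12 of 14 stromal markers passed as higher in the second set (0.132% to 0.189% of the gene total, against 0.00966% and 0.0132%), as did 9 of 10 smooth muscle markers (0.0802% to 0.461% against 0.0127% and 0.0189%) and 10 of 10 endothelial markers (0.136% to 0.467% against 0.0275% and 0.0276%). Tubular and ductal epithelial markers did not pass in either direction (0 of 10; 0.0779% to 0.214% against 0.113% and 0.206%). The part of these cell types, and of the macrophage signal, in the collagen differences was not tested.

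Fibrillar chains passed as higher in the second set in 7 of 11 cases, beside 9.88% of all genes, and 10 had a fitted value above 0. Their median log2 fold change was 3.18 (range -0.07 to 5.29). Besides Col3a1 (chromosome 1, 45311538 to 45349706, plus strand, mm10), whose log2 fold change between sets was 3.51 (SE 0.35, adjusted p = 0.00134), the main chains were those of type I, the chief collagen of bone, tendon and most interstitium. Col1a2 (chromosome 6, 4504814 to 4541544, plus strand) had 2664 and 1851 normalized counts in HCN3-positive 1 and HCN3-negative 2, against 25132 in HCN3-positive 2, 47648 in HCN3-negative 1 and 26146 in HCN3-negative 3. The sets did not overlap, and the means differed 14.6-fold (log2 fold change 3.83, SE 0.32, adjusted p = 7.96e-04). Col1a1 (chromosome 11, 94936224 to 94953042, plus strand) had 1676 and 969 in the first set and 11140, 20836 and 6613 in the second. It was 9.73 times higher by means (log2 fold change 3.18, SE 0.48, adjusted p = 0.00532), but without HCN3-negative 2 its adjusted p was 0.0542.

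Type V chains start collagen fibrils and limit their width. Col5a1 (chromosome 2, 27886425 to 28039514, plus strand) had 488 and 473 normalized counts in HCN3-positive 1 and HCN3-negative 2 and 3973, 7352 and 3474 in HCN3-positive 2, HCN3-negative 1 and HCN3-negative 3 (log2 fold change 3.28, SE 0.34, adjusted p = 0.00146). Col5a2 (chromosome 1, 45374321 to 45503282, minus strand), next to Col3a1, had 823 and 506 against 4113, 8307 and 3531 (2.93, SE 0.41, adjusted p = 0.00405). Neither pair of first-set values reached the lowest second-set value. Col5a3 and Col24a1, at no more than 363 normalized counts in any library, also passed, but neither did so when HCN3-negative 1, HCN3-negative 3, HCN3-positive 1 or HCN3-positive 2 was left out alone (adjusted p 0.0584 to 0.0901 for Col5a3 and 0.0808 to 0.134 for Col24a1), and edgeR gave 0.0622 for Col24a1.

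Fibrillar chains best known from cartilage varied more between libraries. Col2a1, the main cartilage collagen, had 0 normalized counts in HCN3-positive 1 and 261 in HCN3-negative 2, against 1151, 373 and 593 in the second set. Its log2 fold change of 5.29 had an SE of 2.08 (adjusted p = 0.126). Col11a2 had 56.4 and 101 against 105, 24.1 and 143, the single member with a fitted value below 0 (-0.07, SE 0.92), whose sign changed under DESeq2 (0.21) and edgeR (0.18). Col27a1, with 448 and 242 against 583, 523 and 344, overlapped between the sets and did not pass (0.52, SE 0.44, adjusted p = 0.472). Col11a1, a partner of type V and of cartilage type II, had 162 and 206 against 646, 798 and 324, without overlap (1.58, SE 0.49, adjusted p = 0.0653), and passed under DESeq2 (0.00650) and without HCN3-negative 3 (0.0310). Of 8 cartilage markers, 5 had a fitted log2 fold change above 0 and 3 below, and Sox5 alone passed (2.85, SE 0.52, adjusted p = 0.0108). Their summed level was 0.00172% and 0.00247% of the gene total in the first set and 0.0107%, 0.00622% and 0.00504% in the second. Acan was at 0 in both first-set libraries, and Matn1 and Matn3 were at 0 in HCN3-positive 1 and HCN3-negative 1, Matn3 also in HCN3-negative 3. The part of cartilage RNA in the Col2a1 values was not tested.

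**Figure D2:**
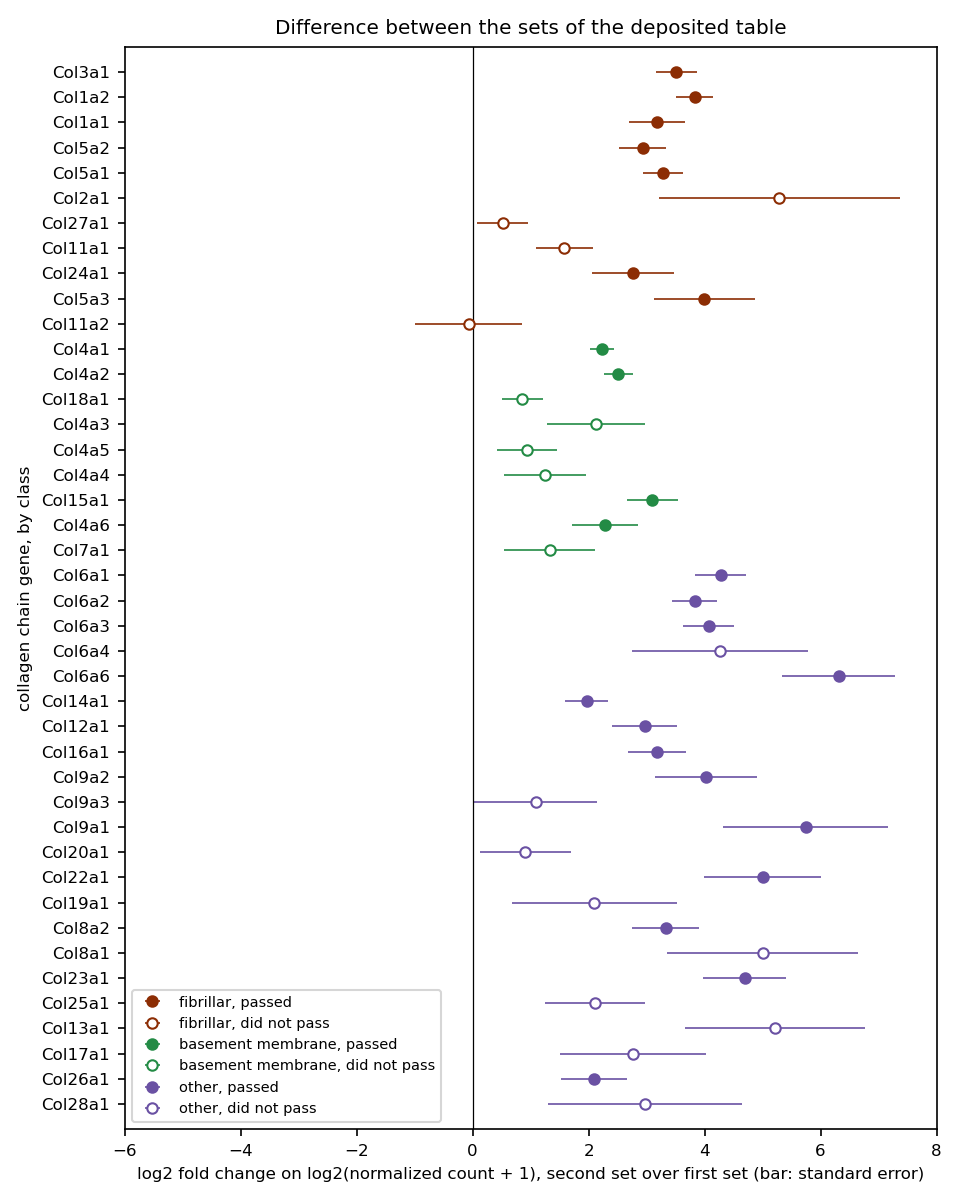
Fitted log2 fold change on log2(normalized count + 1), second over first set, of the 42 tested members with its standard error (bar); filled points passed the limma test at an adjusted p of 0.05 and open points did not. Points lie right of 0 except Col11a2 at -0.07, and basement membrane chains lie between 0.86 and 3.10.

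Basement membrane chains passed as higher in 4 of 9 cases, beside 9.88% of all genes. Their median was 2.13 (range 0.86 to 3.10), or 1.07 without HCN3-negative 2. Col4a1 and Col4a2, the ubiquitous pair whose windows are printed above, were the most abundant. Col4a1 (chromosome 8, 11198423 to 11312826, minus strand) had 12000 and 11782 normalized counts in HCN3-positive 1 and HCN3-negative 2, against 47280, 66788 and 54971 in HCN3-positive 2, HCN3-negative 1 and HCN3-negative 3 (log2 fold change 2.23, SE 0.20, adjusted p = 9.02e-04). Its neighbour Col4a2 (11312805 to 11449287, plus strand) had 3937 and 5892 against 21989, 30527 and 30663 (2.51, SE 0.25, adjusted p = 0.00125). Each set was narrow for both genes, and the means differed 4.74-fold and 5.64-fold. Col15a1, a chondroitin sulfate-bearing collagen of vessel and muscle basement membranes, had 67.7 and 66.6 against 485, 535 and 757 (3.10, SE 0.44, adjusted p = 0.00432).

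Col18a1, the precursor of endostatin, stood apart in level. It had 14475 and 9061 normalized counts in HCN3-positive 1 and HCN3-negative 2, against 18650, 15321 and 31396 in HCN3-positive 2, HCN3-negative 1 and HCN3-negative 3. The sets did not overlap, but the lowest second-set value was close to the highest of the first and the gene did not pass (log2 fold change 0.86, SE 0.35, adjusted p = 0.135). Per kb of the coding transcript Col18a1 was the most abundant collagen in HCN3-positive 1 (2587 normalized counts per kb, against 1814 for Col4a1 and 925 for Col3a1), whereas Col3a1 was the highest in HCN3-positive 2 (9824 per kb) and HCN3-negative 1 (18236 per kb). Col4a1 led in HCN3-negative 3, at 8310 per kb with Col3a1 at 7656, and in HCN3-negative 2, at 1781 per kb with Col18a1 at 1619. Per kb of all annotated exons, Col4a1 lay above Col3a1 in HCN3-positive 2, so that order depends on the transcript length assumed.

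The type IV chains Col4a3, Col4a4 and Col4a5 followed another order than Col4a1 and Col4a2. Col4a3 had 1911 and 436 normalized counts in HCN3-positive 1 and HCN3-negative 2, and 1809, 3431 and 10328 in HCN3-positive 2, HCN3-negative 1 and HCN3-negative 3, so the sets overlapped (log2 fold change 2.13, SE 0.84, adjusted p = 0.126; 0.0339 by DESeq2). Col4a4 had 770 and 245 against 543, 919 and 2217 (1.25, SE 0.70, adjusted p = 0.268). Col4a5 had 3423 and 1232 against 2757, 3361 and 6661 (0.94, SE 0.52, adjusted p = 0.261). All 3 were highest in HCN3-negative 3 and lowest in HCN3-negative 2, as were Col15a1, Col18a1 and Col26a1. Podocyte markers had the same highest and lowest libraries as a summed level: 1.07% of the gene total in HCN3-negative 3, 0.182% in HCN3-negative 1, 0.140% in HCN3-positive 2, 0.0440% in HCN3-positive 1 and 0.0271% in HCN3-negative 2, and 6 of 8 passed as higher in the second set. The pattern was not particular to podocyte markers. Summed endothelial markers (0.467% and 0.0275%) and mesothelial markers (0.0202% and 0.00223%) were also highest in HCN3-negative 3 and lowest in HCN3-negative 2. The part of podocyte RNA, or of RNA from these other cell types, in the chain levels was not tested.

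Col4a6, a chain of smooth muscle and other basement membranes that starts next to Col4a5, had 166 and 64.4 normalized counts in the first set and 386, 733 and 472 in the second. It passed (2.29, SE 0.57, adjusted p = 0.0311), but not without HCN3-negative 1, HCN3-negative 2, HCN3-negative 3 or HCN3-positive 2 (adjusted p 0.0731 to 0.124). Within the summed type IV level per kb, Col4a1 and Col4a2 made up 74.1% in HCN3-positive 1, 83.8% in HCN3-negative 3 and 90.8% to 93.4% in the other 3 libraries. Col4a3, Col4a4 and Col4a5 made up 25.2% in HCN3-positive 1, 15.7% in HCN3-negative 3, 8.89% in HCN3-negative 2, 6.31% in HCN3-negative 1 and 6.08% in HCN3-positive 2. This mixture followed neither the labels nor the sets. Col7a1, the anchoring fibril chain, ranged from 48.8 to 464 normalized counts and did not pass (adjusted p = 0.289).

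**Figure D3:**
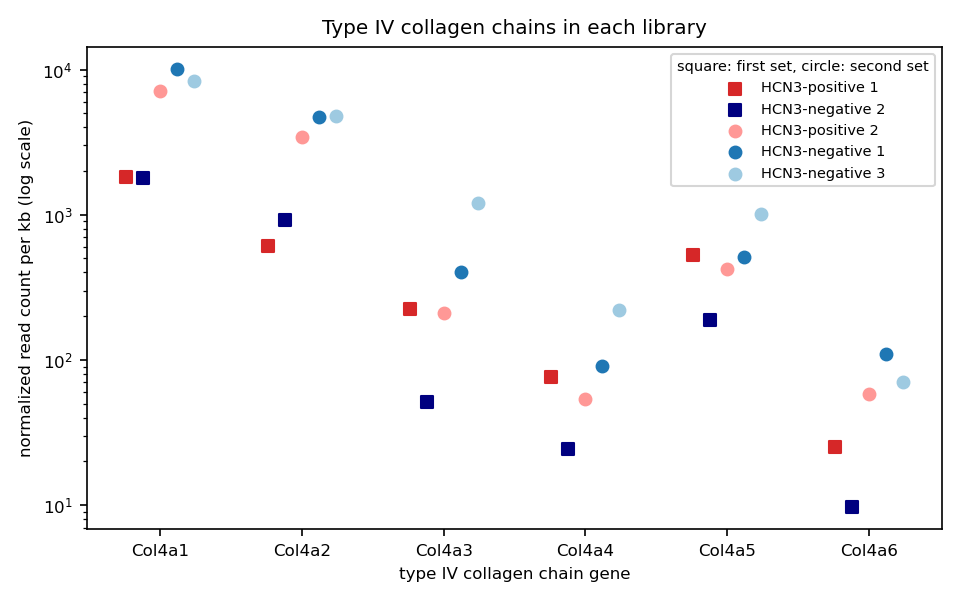
Normalized read count per kb of the coding transcript (log axis) of the 6 type IV chains in each library, squares for the first set and circles for the second. Col4a1 and Col4a2 separate the sets, whereas HCN3-negative 3 is the highest and HCN3-negative 2 the lowest library for Col4a3, Col4a4 and Col4a5.

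Type VI chains passed as higher in the second set in 4 of the 5 tested, beside 9.88% of all genes. All 5 had a fitted value above 0. Their median log2 fold change was 4.27, and their summed level was 18.1 times higher. Col6a1 (chromosome 10, 76708792 to 76726168, minus strand) had 516 and 997 normalized counts in HCN3-positive 1 and HCN3-negative 2, against 13577, 22621 and 8842 in HCN3-positive 2, HCN3-negative 1 and HCN3-negative 3 (4.28, SE 0.44, adjusted p = 0.00138). Col6a2 (chromosome 10, 76595762 to 76623630, minus strand) had 475 and 497 against 6842, 11327 and 4251 (3.83, SE 0.39, adjusted p = 0.00138). Col6a3 (chromosome 1, 90765923 to 90843971, minus strand) had 262 and 364 against 4337, 9507 and 3432 (4.07, SE 0.44, adjusted p = 0.00170). These are the partner chains of the common type VI filament, and for all 3 the lowest second-set library lay far above the first set.

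The other type VI chains were rare. Col6a6 had 0 normalized counts in both first-set libraries and 46.7, 70.4 and 145 in the second. Its mean was at least 23.1-fold higher there, against a floor of 3 reads per library (adjusted p = 0.00559). Col6a4 had 36.6 and 0 against 106, 200 and 75.3, without overlap, and did not pass (4.27, SE 1.52, adjusted p = 0.0982). Col6a5 was at 0 in the first set and between 0.891 and 15.8 in the second.

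Fibril-associated chains passed in 6 of 9 cases, with a median of 2.97, while 3 of 9 passed in the authors' deposited table. Col14a1, which coats type I fibrils, had 1570 and 1097 normalized counts in HCN3-positive 1 and HCN3-negative 2, against 4124, 8451 and 3929 in HCN3-positive 2, HCN3-negative 1 and HCN3-negative 3 (1.97, SE 0.37, adjusted p = 0.0119). Col12a1, a related chain of tendon and other dense tissue, had 478 and 271 against 2237, 5971 and 1680 (2.97, SE 0.56, adjusted p = 0.0117). Col16a1 had 433 and 230 against 2892, 4980 and 1639 (3.18, SE 0.50, adjusted p = 0.00640). The sets of all 3 genes did not overlap, but without HCN3-negative 2 the adjusted p was 0.0893, 0.0896 and 0.0547, and without HCN3-positive 1 it was 0.0642 for Col14a1 and 0.0624 for Col12a1.

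Type IX chains sit on cartilage fibrils. Col9a1 had 0 and 31.1 normalized counts in the first set and 386, 379 and 189 in the second (5.74, SE 1.42, adjusted p = 0.0312). Col9a2 had 8.46 and 28.9 against 378, 454 and 117 (4.02, SE 0.88, adjusted p = 0.0205). Both separated the sets, whereas Col9a3, their partner, did not: 32.4 and 245 against 386, 247 and 74.4 (1.09, SE 1.06, adjusted p = 0.527). Col9a1 did not pass without HCN3-negative 1, HCN3-negative 3 or HCN3-positive 2 (0.0643 to 0.117) or under edgeR (0.0916), nor Col9a2 without HCN3-negative 1, HCN3-positive 1 or HCN3-positive 2 (0.0905 to 0.109). Col22a1, a chain of tissue junctions, had 0 in both first-set libraries and 46.0, 17.8 and 36.3 in the second, at least 8.83-fold higher. It passed (adjusted p = 0.0158), but not without HCN3-negative 3, HCN3-positive 1 or HCN3-positive 2 (0.0518 to 0.0870). Col19a1 and Col20a1 did not pass.

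Among the remaining chains, Col23a1, a transmembrane collagen, showed one of the widest gaps. It had 52.2 and 112 normalized counts in HCN3-positive 1 and HCN3-negative 2, against 2964, 3542 and 762 in HCN3-positive 2, HCN3-negative 1 and HCN3-negative 3, a 29.5-fold difference of means (4.69, SE 0.72, adjusted p = 0.00556; 0.0651 without HCN3-positive 1). Within the second set HCN3-negative 3 was the low library, as it was for the smooth muscle markers (0.0802% of the gene total, against 0.338% in HCN3-positive 2 and 0.461% in HCN3-negative 1). HCN3-negative 3 was also the low second-set library for the summed tubular, urothelial, cartilage and glial markers, and for Col1a1, Col6a1 and Col8a2 among other collagens. It was the high one for the summed endothelial and podocyte markers. The part of smooth muscle RNA in the Col23a1 difference was not tested. The transmembrane chains Col25a1 (195 and 25.5 against 257, 408 and 287; adjusted p = 0.140), Col13a1 (0 and 52.2 against 294, 231 and 292; 0.0572) and Col17a1 (0 and 7.77 against 13.0 to 33.4; 0.178) separated the sets but did not pass. Col13a1 passed in the authors' deposited table (0.00134), by DESeq2 (0.0396) and in limma with a pseudocount of 5 (0.0286).

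Col8a2, a network collagen of vessel walls and the cornea, had 76.1 and 181 normalized counts in the first set and 1263, 1984 and 676 in the second (3.33, SE 0.58, adjusted p = 0.00897; 0.0723 without HCN3-positive 1). Its partner Col8a1 had 0 and 66.6 against 366, 257 and 193 and did not pass (0.0765), but did in the authors' deposited table (0.00406) and in limma with a pseudocount of 5 (0.0456). Col26a1 had 500 and 171 against 935, 978 and 2111 (2.09, SE 0.57, adjusted p = 0.0424), and did not pass without HCN3-negative 1, HCN3-negative 2, HCN3-negative 3 or HCN3-positive 2 (0.0925 to 0.181) or under edgeR (0.0690). Col10a1, the growth plate collagen, was at 0 to 5.55 normalized counts and Col28a1 at 0 to 27.0.

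Of 22 other chains tested, 13 passed as higher, beside 9.88% of all genes. The 22 had a median log2 fold change of 3.58, or 3.25 with Col6a6, Col22a1 and Col28a1 set at their lower bounds. Over all 42 members the median with these bounds was 2.95. Differences between the 3 classes were not tested. Of the members listed next, Col6a6 was at 0 in both first-set libraries and met the minimum mean only through the second set. With each library left out in turn, 17 to 21 members passed, and 11 passed every time and under every other setting run: Col1a2, Col3a1, Col5a1, Col5a2, Col4a1, Col4a2, Col15a1, Col6a1, Col6a2, Col6a3 and Col6a6.

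The make-up of the collagen RNA also moved with the sets. Per kb of the coding transcript, fibrillar chains made up 22.5% and 24.7% of the summed collagen level in HCN3-positive 1 and HCN3-negative 2, against 43.4%, 50% and 35.1% in HCN3-positive 2, HCN3-negative 1 and HCN3-negative 3. Basement membrane chains made up 66.8% and 62.7% against 35.6%, 28.4% and 50.4%. Other chains made up 10.8% and 12.6% against 21.0%, 21.5% and 14.5%. Fibrillar and basement membrane shares did not overlap between the sets, and by label they did. Which class held more in HCN3-positive 2 depends on the length assumed. Per kb of all annotated exons, fibrillar chains held 34.4% there and basement membrane chains 43.1%. The summed fibrillar level was 0.606 and 0.611 times that of type IV in the first set and 1.59, 2.08 and 0.956 times in the second, with HCN3-negative 3 between the others. As a difference of mean log2 levels, in which rare chains weigh as much as abundant ones, fibrillar minus type IV was -3.39 and -1.48 in the first set and -0.95, -1.29 and -2.35 in the second, so by that measure the sets overlapped. Within the fibrillar level Col3a1 held 46.7% to 56.8% in every library and Col1a2 19.1% to 32.8%, so the leading chains were the same throughout.

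**Figure D4:**
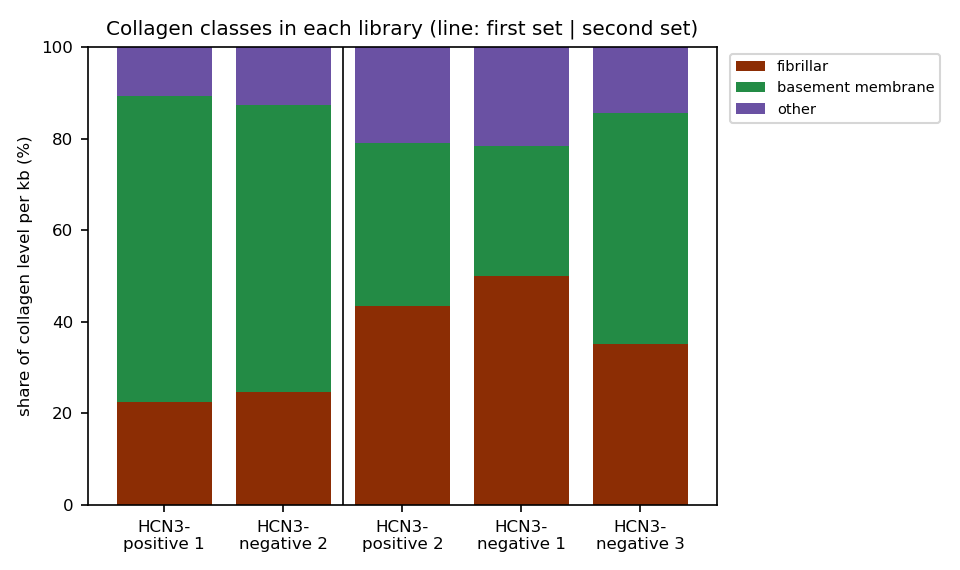
Share of the summed collagen level, in normalized counts per kb of the coding transcript, held by fibrillar, basement membrane and other chains in each library; the vertical line divides the first set (left) from the second (right). Basement membrane chains hold 66.8% and 62.7% on the left and 28.4% to 50.4% on the right.

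The highest library differed by class. HCN3-negative 1 was the highest for 23 of the 44 members, among them 8 of 11 fibrillar and 12 of 24 other chains. HCN3-negative 3 was the highest for 11, among them 6 of 9 basement membrane chains (Col4a2, Col4a3, Col4a4, Col4a5, Col15a1 and Col18a1), and HCN3-positive 2 for 9. No member was highest in HCN3-positive 1, and HCN3-negative 2 was highest for Col10a1 alone. The lowest value stood in HCN3-positive 1 for 19 members and in HCN3-negative 2 for another 19, leaving out ties at 0. The matching shares over all genes are not given here, so these counts are not set against a background. Summed smooth muscle markers were also highest in HCN3-negative 1 (0.461% of the gene total) and summed endothelial markers in HCN3-negative 3 (0.467%).

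Ratios of partner chains were computed within each library for 9 pairs, of which 7 had at least 10 reads for both chains in every library. By label, an exact two-sided permutation test over the 5 libraries gave 0.200 to 1.00 for the 7 pairs (Benjamini-Hochberg 0.933 to 1.00), where the smallest p the design allows is 0.1. Col6a1 to Col6a2 was 1.98 to 2.08 in 4 libraries and 1.09 in HCN3-positive 1. Col5a1 to Col5a2 was 0.885 to 0.984 in the same 4 and 0.592 in HCN3-positive 1. Col4a1 to Col4a2, which are read from a shared start region, was 1.79 to 2.19 in them and 3.05 in HCN3-positive 1. For these 3 pairs HCN3-positive 1 stood outside the range of the rest. It was also the highest library for Col1a1 to Col1a2, Col4a5 to Col4a6 and Col6a3 to Col6a1, given next. HCN3-positive 1 had the fewest reads, and the part of depth in these ratios was not tested.

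Other ratios varied more. Col1a1 to Col1a2, the partner chains of type I, was 0.629 in HCN3-positive 1, 0.443 in HCN3-positive 2, 0.437 in HCN3-negative 1, 0.523 in HCN3-negative 2 and 0.253 in HCN3-negative 3. Both first-set values lay above the second set, and HCN3-negative 3 was the lowest. Per kb of the coding transcript the ratio was 0.228 to 0.567 and per kb of all annotated exons 0.479 to 1.19, so which chain had the higher level depends on the transcript length assumed. Col4a5 to Col4a6 was 20.6 and 19.1 in the first set and 7.13, 4.58 and 14.1 in the second. Col4a3 to Col4a4 was 2.48 and 1.78 against 3.33, 3.74 and 4.66. Both pairs separated the sets, in opposite directions. Col6a3 to Col6a1 ranged from 0.319 to 0.508, highest in HCN3-positive 1, with the sets overlapping.

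**Figure D5:**
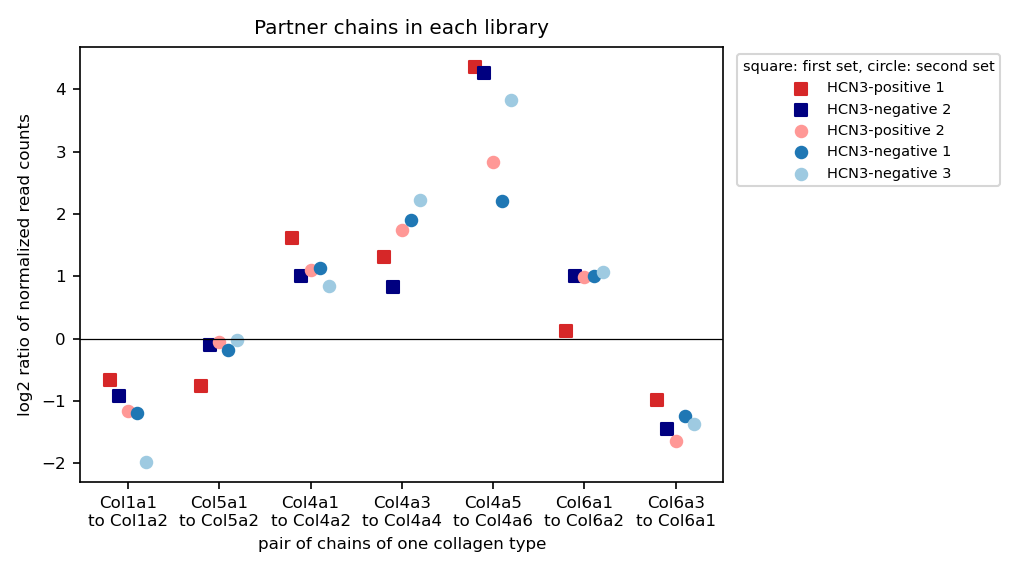
Log2 ratio of the normalized counts of partner chains in each library for the 7 pairs with at least 10 reads in every library, squares for the first set and circles for the second. Col6a1 to Col6a2 clusters near 1 in 4 libraries and is lower in HCN3-positive 1, and Col1a1 to Col1a2 is lowest in HCN3-negative 3.

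Genes that modify, fold and process collagen chains were tested in the same fit, in which 9.88% of all genes were higher and 10.6% lower in the second set, with a median log2 fold change of 0.07. Of 15 genes listed under proline and lysine hydroxylation, not all of them hydroxylases, 6 passed as higher in the second set and 0 as lower (median log2 fold change 1.30). Leprel2, a prolyl 3-hydroxylase now named P3h3, had 338 and 543 normalized counts in HCN3-positive 1 and HCN3-negative 2 and 2915, 4276 and 2441 in HCN3-positive 2, HCN3-negative 1 and HCN3-negative 3 (2.86, SE 0.33, adjusted p = 0.00214). Leprel4, now P3h4, rose by 1.87 (SE 0.22) and Plod2, a lysyl hydroxylase, by 1.91 (SE 0.27) on the log2 scale. Of 15 chaperones and export factors, 6 passed as higher and 1 as lower (median 0.61). Serpinh1, the collagen chaperone HSP47, had 5458 and 6871 against 33309, 26686 and 32439 (2.32, SE 0.19, adjusted p = 7.79e-04). Fkbp10, a prolyl isomerase of the endoplasmic reticulum, was higher by 2.92 (SE 0.29), whereas the export factor Ctage5 was lower, with 6817 and 6821 against 2691, 2298 and 3045 (-1.36, SE 0.19, adjusted p = 0.00423). Mia2, counted separately among the 15, overlapped between the sets and did not pass (0.61, adjusted p = 0.723).

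Of 10 propeptide-removal genes, 4 passed as higher and 0 as lower (median 2.55). Bmp1, the procollagen C-proteinase, had 788 and 637 normalized counts in the first set and 4251, 5155 and 6245 in the second (2.86, SE 0.24, adjusted p = 7.91e-04). Its enhancer Pcolce was higher by 2.65 (SE 0.35), and the N-proteinase Adamts14 by 5.61 (SE 0.88). Adamts14 had 1 and 9 reads in the first set against 249, 310 and 328 in the second. Of 7 crosslinking genes, 6 passed as higher (median 3.41). Pxdn, which joins type IV networks, had 1931 and 2547 against 12036, 15118 and 22683 (2.85, SE 0.29, adjusted p = 0.00138). The lysyl oxidases Loxl1 and Loxl4 were higher by 3.41 (SE 0.36) and 5.86 (SE 0.72). Loxl4 had 2 and 3 reads in the first set against 259, 364 and 224 in the second. It met the minimum mean only through the second set. Of 18 fibril assembly genes, 11 passed as higher and 1 as lower (median 3.05). Sparc, a collagen-binding matrix protein, had 4746 and 6238 against 40159, 53393 and 70275 (3.29, SE 0.27, adjusted p = 7.58e-04). Bgn and Fbln1, a small proteoglycan and a fibulin, were higher by 3.46 (SE 0.32) and 3.92 (SE 0.43).

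Of 17 partners of type IV in basement membranes, 10 passed as higher and 0 as lower (median 1.23). Nid1, which links type IV to laminin, had 684 and 1742 normalized counts in the first set and 11528, 20344 and 18503 in the second (3.90, SE 0.43, adjusted p = 0.00175). Lama4, a laminin chain of vessels and stroma, was higher by 3.13 (SE 0.44) and Frem1 by 3.99 (SE 0.60). Of 12 collagen receptors, 4 passed as higher and 1 as lower (median 1.86). Ddr2, a tyrosine kinase that binds fibrillar collagen, had 35.2 and 119 against 1453, 3023 and 1095 (4.68, SE 0.65, adjusted p = 0.00392), and the uptake receptor Mrc2 was higher by 3.45 (SE 0.38). Lair1, an inhibitory collagen receptor of leukocytes, went the other way, with 7574 and 9259 against 11.9, 1.78 and 1.86 (-10.81, SE 0.85, adjusted p = 6.79e-04). Its 2 high libraries are those with the macrophage markers.

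Of 15 transcription factors with a known link to collagen genes or collagen-making cells, 6 passed as higher and 2 as lower (median 2.81). Tcf21, a factor of renal stroma, had 492 and 584 normalized counts in the first set and 6394, 7462 and 12735 in the second (3.98, SE 0.32, adjusted p = 6.91e-04), and Zeb1 was higher by 3.05 (SE 0.31). Runx1, a blood cell factor, had 3080 and 3391 against 197, 160 and 71.6 (-4.61, SE 0.49, adjusted p = 0.00157). The stromal, smooth muscle, endothelial and macrophage marker levels given above divide the libraries in the same way, and their part in the differences of these lists was not tested.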

How the data were processed

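RNA from sorted cells was made into libraries with Clontech and Nextera XT kits, per the labels' protocols; strand is not stated to be kept, so reads of overlapping genes on opposite strands may be mixed. The submitters' processing notes list cutadapt 1.8, HTSeq 0.6.1p2, TopHat2 2.0.11, DESeq 1.18.0 and the build mm10, without their roles. The authors deposited, as signal columns, read counts divided by a size factor, with a mean over all libraries, fold (ratio) and log2 fold columns and p-values. The gene annotation behind the counts is not named in the sources at hand.

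Columns were matched to libraries by the labels. The 3 counter summary rows were left out (13.5% to 18.7% of reads not unique, 8.58% to 14.0% in no gene and 0.792% to 2.32% ambiguous). The fold column fixed the 2 sets. Genes with a mean normalized count of at least 5 were tested with limma 3.58.1 (R 4.3.3, trend) on log2(value + 1), two-sided, Benjamini-Hochberg over 16579 genes, threshold 0.05. Alternatives were edgeR 4.0.16 and DESeq2 1.42.0 on recovered reads (whole within 0.01), TMM scaling, pseudocounts of 0.5 and 5, minimum means of 0 and 20, a replicate block and leaving out each library. No pair of libraries was a duplicate (chi-square divided by its degrees of freedom 102 to 775). A floor of 3 reads equals 2.23 to 4.23 normalized counts. Levels between genes are per kb of the transcript with the longest coding sequence in GENCODE vM21 (GRCm38). Overlaps of exons with other genes covered at most 6.07% of a member (Col9a3). The limma fits were tested on simulated data. By label, limma called 2.0% of 4-fold, 37.0% of 16-fold and 62.0% of 64-fold changes in the right direction. Between the sets it called 38.0%, 70.0% and 92.0%.

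Members and lists were chosen with earlier results of these data known. Values in every library were to be given for the 4 most abundant members of each class, the 3 largest changes in each direction, partner chains and members passing by label, and from each pathway list the 3 smallest p between sets; further members are given for completeness. Of the list symbols, 8 were matched through older names.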

Additional observations from a re-analysis of the deposited data

How the results depend on the processing

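By label, DESeq2 called 10 genes and every other setting 0, with no collagen among them. The collagen median by label ranged from -2.14 to 0.86 with each library left out, and was above 0 without HCN3-positive 1 alone. Between the sets, 1508 to 2901 genes were called with each library left out (3396 with all 5): 1787 without HCN3-negative 1, 1508 without HCN3-positive 1 and 1892 without HCN3-positive 2. The median of the other chains was 3.22 to 4.18 with each library left out, that of fibrillar chains 2.75 to 3.49 and that of basement membrane chains 1.07 (without HCN3-negative 2) to 2.35. Col11a2 was above 0 under DESeq2 (0.21) and edgeR (0.18), and ranged from -0.57 to 0.70 with each library left out. Collagen calls between sets were 27 by DESeq2 (4579 of all 16579 genes), 21 by edgeR (2824), 26 with a pseudocount of 5 (3479) and 24 under every other setting that kept all libraries. Lengths per kb of all exons, added after seeing the data, gave fibrillar shares of 26.4% to 40.7% in the second set and lower ones, from 17.3%, in the first. The correlation of deviations between libraries with the same replicate number was -0.534 and -0.686. Such libraries stand in opposite sets, so these values cannot show whether they were paired. With the replicate number as a block limma called 0 genes by label, 26 under an unadjusted p of 0.05. The shallowest library, HCN3-positive 1, limits rare chains: 3 reads there equal 4.23 normalized counts.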
